A study of Mus musculus with 11 samples.

Results

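Hedgehog signalling genes were followed in RNA-seq of mouse cells with and without Atxn7l3. The 9 genes were the 3 ligands (Shh, Ihh, Dhh), the receptor Ptch1, the transducer Smo, the transcription factors Gli1, Gli2 and Gli3, and the ligand-binding inhibitor Hhip. They were taken by gene name, and all 9 were found among the 31518 genes listed for mouse embryonic stem cells (mESCs) and among the 29450 genes listed for mouse embryonic fibroblasts (MEFs).

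ATXN7L3 is an adaptor of the deubiquitinating module of the SAGA co-activator complex, which removes ubiquitin from histone H2B. The study compared gene expression between wild-type (WT, Atxn7l3+/+) and Atxn7l3-/- cells of DBA/2 x C57BL/6 background, in 2 libraries of WT mESCs, 3 of Atxn7l3-/- mESCs, 3 of WT MEFs and 3 of Atxn7l3-/- MEFs. Each mESC line came from 1 blastocyst and each MEF culture from 1 embryo of heterozygous intercrosses. The null allele was made by crossing mice with a targeting construct to a FLP deleter strain. The authors left out 1 further WT mESC dataset because it did not group with the other replicates, and it was not analysed here. The 2 WT mESC libraries were thus kept partly for their likeness. The spread of WT mESCs may therefore be understated in every test that uses them. All mESCs were grown on feeder cells at first and then without them, in medium with leukaemia inhibitory factor, 15% foetal calf serum, the MEK inhibitor PD0325901 (1 uM) and the GSK3 inhibitor CH99021 (3 uM). The MEFs were made from E10.5 embryos from which head and gut had been taken away, and were grown in DMEM with 10% foetal calf serum. Cell type could therefore not be told apart from medium and derivation. Libraries held 34515342 to 49602605 counts assigned to genes.

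In the Hedgehog pathway, a secreted ligand binds Patched on the receiving cell and lifts the inhibition that Patched exerts on Smoothened. Smoothened then acts at the primary cilium to shift GLI proteins from repressor to activator forms, and the activated factors raise transcription of Ptch1, Gli1 and Hhip, among others. In the embryo the ligands come from structures such as notochord, floor plate, gut epithelium and cartilage, while mesenchyme is a main responding tissue.

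Promoter windows, 300 bases around the annotated start in the RefSeq table of build GRCm38.p6, were found for 7 of the 9 genes (not for Shh and Gli1). They are shown for the genes on which the comparisons turn: Hhip (called in MEFs), Smo (called for a difference between cell types) and Gli2 (lower in WT MEFs than in WT mESCs, against Smo). The windows lay at chr8:80057959-80058258 (minus strand) for Hhip, at chr6:29735247-29735546 (plus strand) for Smo and at chr1:119053570-119053869 (minus strand) for Gli2. Capitals mark the GC box GGGCGG or its reverse complement CCGCCC.
Hhip: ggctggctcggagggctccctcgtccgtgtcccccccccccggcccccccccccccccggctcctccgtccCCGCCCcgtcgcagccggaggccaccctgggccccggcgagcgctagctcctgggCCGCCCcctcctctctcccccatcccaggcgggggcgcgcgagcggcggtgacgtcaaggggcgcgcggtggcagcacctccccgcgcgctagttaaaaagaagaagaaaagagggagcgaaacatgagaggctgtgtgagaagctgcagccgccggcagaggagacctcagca
Smo: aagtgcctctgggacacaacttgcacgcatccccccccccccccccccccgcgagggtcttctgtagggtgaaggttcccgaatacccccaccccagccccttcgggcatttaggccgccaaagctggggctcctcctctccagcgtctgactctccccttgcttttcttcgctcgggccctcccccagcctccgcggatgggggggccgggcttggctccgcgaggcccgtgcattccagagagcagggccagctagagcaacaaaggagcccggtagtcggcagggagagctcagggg
Gli2: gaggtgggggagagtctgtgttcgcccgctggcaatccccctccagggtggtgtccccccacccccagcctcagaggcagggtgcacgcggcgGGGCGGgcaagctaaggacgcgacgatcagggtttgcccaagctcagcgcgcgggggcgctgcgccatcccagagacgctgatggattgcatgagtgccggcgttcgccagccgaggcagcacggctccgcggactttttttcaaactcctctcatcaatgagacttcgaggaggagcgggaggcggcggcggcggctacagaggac
The GC box occurred 2 times in the Hhip window, 0 times in the Smo window and 1 time in the Gli2 window, and 35.7% of all 32851 promoter windows held at least 1. The GLI consensus GACCACCCA, searched on both strands (reverse complement TGGGTGGTC), was in none of the 7 windows and in 0.253% of all windows. With at most 1 mismatch it was again in none of the 7, against 6.74% of all. The windows of Ptch1 (chr13:63565686-63565985) and Gli3 (chr13:15463473-15463772) lay within the gene. The share of G and C was 73.7% for Hhip, 67.7% for Smo and 67.3% for Gli2, above the median of 52.7% over all windows.

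Atxn7l3 itself was examined first. Values are TMM CPM, which are counts scaled for the size of each library and, by the TMM factors, for its composition, over all 11 libraries. In mESCs it stood at 197 and 203 CPM in WT and at 3.34, 1.61 and 0.833 CPM in the Atxn7l3-/- libraries. The log2 fold change was -6.65 (SE 0.53; edgeR quasi-likelihood, Benjamini-Hochberg adjusted p = 0.0211), in all 3 libraries. In MEFs it stood at 86.6, 117 and 104 CPM in WT and at 56.5, 55.5 and 73.3 CPM in the libraries labelled Atxn7l3-/-. The groups did not overlap, but the difference was -0.74 on the log2 scale (SE 0.21, edgeR adjusted p = 0.0715) and was not called. The data used here are RNA alone, which does not show protein, and no doubt about the genotype is drawn from them. The study also measured ATXN7L3 protein and ubiquitin on H2B in these cells, which is not covered here. Since most of the message was still counted, these MEF libraries are called here by their label. Where in the gene the remaining reads fell was not analysed here.

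Markers of several cell types differed in level between the MEF groups. Over all 15958 genes tested in MEFs, 5.01% were called higher and 4.39% lower, and these shares stand beside every MEF marker count below. Of 14 mesothelium markers, 12 were called higher in the MEF libraries labelled Atxn7l3-/- (edgeR, adjusted p of 0.05 or less) and 0 lower. Their summed level was 103, 68.8 and 60.04 CPM in WT and 12420, 12200 and 7874 CPM in the labelled libraries. The most abundant was Upk1b in replicates 1 and 3 (2937 and 1863 CPM) and Gpm6a in replicate 2 (3057 CPM), and no marker of the list was at 0 in any MEF library. Upk1b, a uroplakin, was higher in 3 of 3 labelled libraries (95% interval of the log2 fold change 7.36 to 9.44, edgeR adjusted p = 0.000903).

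Some markers of other lists were lower in the same comparison. Of the 8 Schwann lineage and neural crest markers, 5 were lower (beside 4.39% of all genes) and 1, the myelin gene Mbp, was higher (beside 5.01%). They summed to 171, 103 and 201 CPM in WT, led by Fabp7 in replicates 1 and 2, and to 249.9, 273 and 159 CPM in the labelled libraries, led by Mbp. Foxd3 had 0 counts in the 3 labelled libraries and was at least 42.5-fold higher in WT, against a floor of 3 counts per library. Sox10 was at 7.36, 4.97 and 26.9 CPM in WT and at 0.0531, 0 and 0.0898 CPM in the labelled libraries. Foxd3 and Sox10 therefore passed the filter only through the WT libraries, where they were higher. Other marker lists can hold such genes too, so nothing is read from the counts of called markers in MEFs. The chondrocyte list, which holds Ihh, summed to 280, 1233 and 604 CPM in WT and to 12.2, 7.06 and 26.3 CPM in the labelled libraries. In it 2 of the 6 tested genes were lower, with the cartilage collagen Col2a1 the most abundant in WT (172, 622 and 510 CPM). Neural progenitor markers summed to 884, 165 and 658 CPM in WT and to 91.8, 26.3 and 68.4 CPM, led by Nes, with 1 of 5 tested lower (Fabp7). The notochord and floor plate list, which holds Shh, summed to 946, 514 and 1144 CPM in WT and to 1007, 924 and 582 CPM in the labelled libraries, led by Cav1 in every MEF library. In it 2 of the 6 tested genes, Foxj1 and Ntn1, were lower, and the defining marker Noto was not listed for MEFs. Muscle markers summed to 130, 47.25 and 56.0 CPM in WT and to 86.0, 59.3 and 27.7 CPM in the labelled libraries, led there by Tnnt2. In this list 1 of 6 tested was called lower, Myh3, at 42.5, 3.00 and 9.18 CPM in WT and at 0.0531, 0.0768 and 0.1797 CPM.

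Markers of visceral and definitive endoderm summed to 21.6, 54.6 and 22.4 CPM in WT and to 389.5, 492 and 233.5 CPM in the labelled libraries, led there by Gata6. Of the 6 tested, Gata6 (log2 fold change 4.86, SE 0.52, edgeR adjusted p = 0.00878) and Gata4 (5.26, SE 0.79, edgeR adjusted p = 0.0177) were called higher and 0 lower. The other 4 were not called, and the list median was 0.17, beside -0.06 over all genes. Gata6 alone was at 286, 382 and 172 CPM in the labelled libraries. Sox17 had 0 counts in all of these and in WT replicates 2 and 3. Of the epithelium markers 1 of 4 tested was called higher, Krt18, which is also in the mesothelium list. The others, Krt8 (log2 fold change 2.80), Cdh1 (-1.58) and Dsp (-3.58), overlapped and were not called. Of the erythroid markers the 1 tested, Alas2, was called higher, while Hba-a1, Hba-a2 and Hbb-bt had 0 counts in every labelled library. Of the endothelium markers edgeR called 0 of 7, with 2 at an unadjusted p under 0.05.

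The 15 fibroblast and mesenchyme markers summed to 22560, 58940 and 40520 CPM in WT MEFs and to 37410, 36850 and 55840 CPM in the labelled libraries, led by Fn1 in all but WT replicate 2 (Col1a2). The groups overlapped, and edgeR called 0 of 15, with 3 at an unadjusted p under 0.05 (DESeq2 was not run by marker list). Here and below, a count of 0 does not show that levels did not differ. Of single markers, chosen after their values were seen, Prrx1 (log2 fold change -2.004), Prrx2 (-2.65) and Vim (-1.21) lay below WT without overlap and Dcn (3.47) above, and none of these was called. In the list 3 of 15 lay below without overlap, beside 19.7% of all genes, and 1 above, beside 20.1%. Nothing is read from these shares. The list median in MEFs was -0.86, beside -0.06 over all genes. Macrophage markers were led by Lyz2 and summed to 952, 1130 and 564 CPM in WT and to 6202, 2262 and 842 CPM in the labelled libraries, with 0 of 8 called and 1 at an unadjusted p under 0.05. In mESCs the 12 pluripotency markers summed to 4736 and 5787 CPM in WT and to 5308, 4902 and 4853 CPM in Atxn7l3-/-, with 0 markers at 0 counts. Klf2 and Tdgf1 were called lower in Atxn7l3-/- mESCs (16.7% of 12, beside 3.88% of all genes) and 0 higher (beside 3.08%). Without overlap, 6 lay below WT (beside 26.7% of all genes) and 1, Dppa5a, above (beside 23.0%). The list median was -0.585, beside 0.04 over all genes. Pou5f1, Zfp42, Dppa4 and Utf1 were not listed for MEFs.

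**Figure D1:**
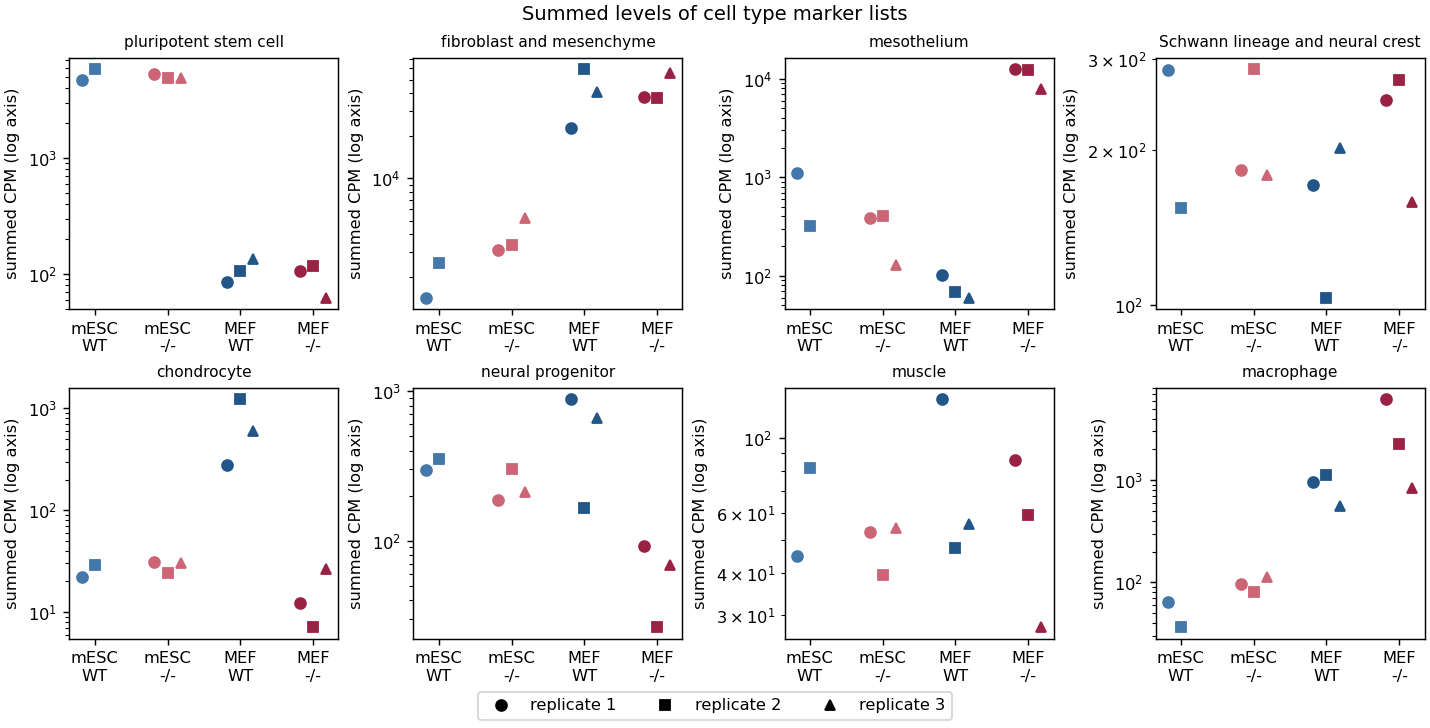
Summed TMM CPM (log axis) of 8 cell type marker lists in each of the 11 libraries, by group, and the marker shape gives the replicate. Mesothelium markers sit at 60.04 to 103 CPM in WT MEFs and at 7874 to 12420 CPM in MEF libraries labelled Atxn7l3-/-, and chondrocyte markers at 280 to 1233 CPM and 7.06 to 26.3 CPM.

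In these bulk libraries, fewer cells of a type and less RNA per cell cannot be told apart. The part of cell type make-up in the Hedgehog results was not tested. Sex also differed between libraries. WT MEF replicate 3 had 336 CPM of Xist, which is expressed from an inactive X chromosome, and 0.244 CPM of the Y-linked Ddx3y, whereas the other 5 MEF libraries had 66.4 to 270 CPM of Ddx3y. In mESCs, Ddx3y was at 80.5 and 175 CPM in WT and at 2.96, 0.793 and 192 CPM in Atxn7l3-/-. In mESCs, leaving out the Atxn7l3-/- libraries low in Ddx3y gave log2 fold changes of 0.91 for Smo, -0.09 for Gli2 and -0.95 for Gli3, with no change of call, while Dhh (edgeR adjusted p = 0.00812) and Hhip (edgeR adjusted p = 0.0129) became called, from 1 Atxn7l3-/- library. In MEFs, leaving out WT replicate 3 gave -5.31 for Shh, -0.95 for Ptch1, -1.17 for Gli2 and -0.56 for Gli3, again with no change of call, while Hhip lost its call (-6.19, edgeR adjusted p = 0.103). Ranges over all settings are given below for some genes and comparisons, mostly as adjusted p alone.

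Gene positions are those of build mm10. Shh, at chr5:28456815-28467256 (minus strand), encodes the ligand of the notochord, floor plate and limb. Its raw counts were 3 and 3 in WT mESCs and 1, 0 and 0 in Atxn7l3-/- mESCs. All 5 libraries were at or under the floor of 3 counts, so the gene was not tested there and no fold is given. In WT MEFs it had 166, 12 and 63 counts (3.39, 0.375 and 1.54 CPM), and in the labelled libraries 5, 0 and 0.

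The WT MEF libraries were all above the labelled ones, with WT replicate 1 the highest and replicate 2 the lowest. A count of 0 allowed up to 0.0768 and 0.0898 CPM in labelled replicates 2 and 3 (3 counts on the TMM scale). In MEFs the log2 fold change of Shh was -5.25 (SE 1.39, 95% interval -8.55 to -1.95, edgeR adjusted p = 0.0607), which missed the threshold. The replicate number was also fitted as a block, added in MEFs after correlations in these counts were seen (see the processing). With it the log2 fold change was -5.59 (SE 0.88, edgeR adjusted p = 0.0249), and Shh was called. Over all settings its adjusted p ran from 0.00182 to 0.169. Of the other notochord and floor plate markers, Foxj1 and Ntn1 were lower in the same libraries, while Foxa2 (log2 fold change 1.54), Krt8 (2.80) and Cav1 (0.04) were not called. The part of this list in the result was not tested.

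Ihh, at chr1:74945315-74951672 (minus strand), encodes the ligand of growth-plate cartilage and gut. It had 10 and 15 counts in WT mESCs and 6, 14 and 22 in Atxn7l3-/- mESCs, which overlapped (log2 fold change 0.40, SE 0.66, edgeR adjusted p = 0.715). WT MEFs had 12, 6 and 12 counts, and the labelled libraries 0, 2 and 1. It passed the filter on low counts in mESCs but not in MEFs fitted alone. In 1 fit of all 11 libraries it was called lower in MEFs (edgeR adjusted p = 0.0283), and over the settings that tested it in MEFs the adjusted p ran from 0.0283 to 0.145. Pooled over libraries, the ratio of WT to labelled MEFs was 9.03, with an exact 95% counting interval of 2.81 to 46.2. Such intervals and floors cover counting error only.

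Dhh, at chr15:98893031-98898540 (minus strand), encodes the ligand of Schwann cells and gonads. Its level was 0.267 and 0.432 CPM in WT mESCs and 0.694, 1.14 and 3.90 CPM in Atxn7l3-/- mESCs. Every Atxn7l3-/- library was above both WT libraries, and replicate 3 was the highest. Its log2 fold change of 2.51 (SE 0.87, edgeR adjusted p = 0.107) was not called, but it was called by DESeq2 (2.49, adjusted p = 0.0295) and without a filter (edgeR adjusted p = 0.0237). Leaving out the 2 Atxn7l3-/- libraries low in Ddx3y, a choice made after seeing the data, gave 3.55 (SE 0.59, edgeR adjusted p = 0.00812), from 1 Atxn7l3-/- library whose spread was taken from the WT pair. Over all settings the adjusted p ran from 0.00812 to 0.415.

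In WT MEFs Dhh was at 1.53, 0.0938 and 1.24 CPM and in the labelled libraries at 0.265, 0.307 and 0.299 CPM. The 3 labelled libraries lay close together, between WT replicate 2 and the other 2 WT libraries, so the groups overlapped (log2 fold change -1.74, SE 0.89, edgeR adjusted p = 0.22). The difference between cell types, MEF minus mESC, was -4.16 (SE 1.38, edgeR adjusted p = 0.0739), not called, but it was called by DESeq2 (-4.21, adjusted p = 0.0148) and without WT MEF replicate 2 (-4.69, edgeR adjusted p = 0.0253). Over all settings its adjusted p ran from 0.0148 to 0.247. In the GENCODE M21 annotation, exons of Dhh share 546 bases with Rhebl1 on the same strand and 1107 bases with Gm49442 on the other strand. The Dhh count can therefore depend on how reads in these bases were assigned. The strand setting of the counting was not given in the sources used here, and Shh, Gli1, Gli3 and Hhip have annotated genes on the other strand over part of their exons.

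**Figure D2:**
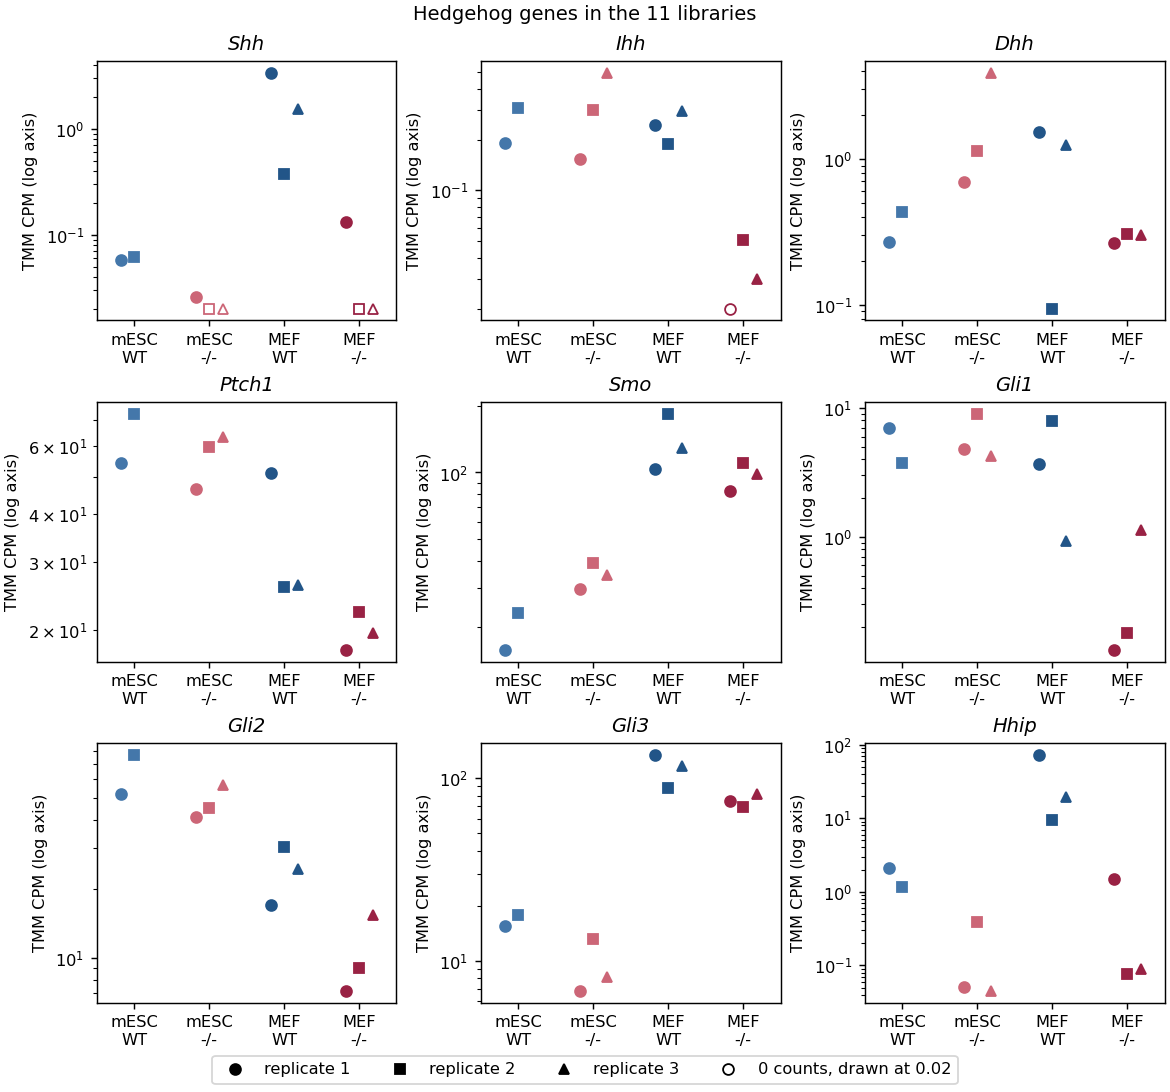
TMM CPM (log axis, a scale of its own in each panel) of the 9 Hedgehog genes in each library, by group, with the marker shape giving the replicate and open markers standing for 0 counts. In the MEF libraries labelled Atxn7l3-/-, Shh, Ihh, Ptch1, Gli2, Gli3 and Hhip lie below every WT MEF library.

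Ptch1, at chr13:63508328-63573598 (minus strand), encodes the receptor that holds Smoothened inactive and is itself raised by the pathway. Its level was 54.1 and 72.6 CPM in WT mESCs and 46.6, 59.7 and 63.5 CPM in Atxn7l3-/- mESCs. The groups overlapped, with a log2 fold change of -0.11 (SE 0.22, edgeR adjusted p = 0.765). In WT MEFs it was at 51.2, 26.0 and 26.3 CPM and in the labelled libraries at 17.8, 22.3 and 19.7 CPM.

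The labelled MEF libraries were below all WT ones, but WT replicate 1 stood well above the other 2 WT libraries. For Ptch1 in MEFs the log2 fold change was -0.81 (SE 0.34, 95% interval -1.61 to -0.01, edgeR adjusted p = 0.149), not called. Over all settings it ran from -0.95 to -0.39, with an adjusted p from 0.0762 to 0.344. Replicate 1 was also the WT MEF library with the most Shh and Hhip.

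Smo, at chr6:29735503-29761365 (plus strand), encodes the seven-pass membrane protein that passes the signal on. Its level was 15.8 and 23.1 CPM in WT mESCs and 29.6, 38.9 and 34.6 CPM in Atxn7l3-/- mESCs. All Atxn7l3-/- mESC libraries were above the WT ones, by 0.87 on the log2 scale (SE 0.25, edgeR adjusted p = 0.0761), not called. DESeq2 called it (0.84, adjusted p = 0.0206), and over all settings the adjusted p ran from 0.0206 to 0.398. Fibroblast and mesenchyme markers stood higher in the same Atxn7l3-/- mESC libraries, with sums of 1421 and 2489 CPM in WT and of 3103, 3383 and 5221 CPM in Atxn7l3-/-, led by Fn1. Of 13 tested, 2 were called higher (Col1a1, 2.54, and Fbln2, 2.00) and 0 lower, beside 3.08% and 3.88% of all genes, and 8 lay above without overlap, beside 23.0%. The mESCs had first been grown on feeder cells, and the part of these markers in the result was not tested. In MEFs Smo was at 104, 184 and 130 CPM in WT and at 82.9, 111 and 98.2 CPM in the labelled libraries.

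Here the groups overlapped with a log2 fold change of -0.53 (SE 0.26, edgeR adjusted p = 0.203), not called. The difference of the effect between cell types, MEF minus mESC, was -1.34 for Smo (SE 0.38, 95% interval -2.17 to -0.51, edgeR adjusted p = 0.0449), and was called. It was the 1 member called lower of 9 tested (11.1%, against 5.27% lower and 6.14% higher over all 19326 genes), with 0 called higher. The call was narrow: it was lost with the replicate block (-1.31, edgeR adjusted p = 0.0501), without a filter (-1.32, edgeR adjusted p = 0.0575), without the Atxn7l3-/- mESC libraries low in Ddx3y (-1.34, edgeR adjusted p = 0.124) and on leaving out any of 10 of the 11 libraries (edgeR adjusted p 0.0525 to 0.201), all but WT MEF replicate 1. Log2 fold changes in MEFs followed the GC content of the transcripts (Spearman rho across genes -0.393, 15944 genes, which are not independent). With a GC correction chosen after seeing the data, the difference was -0.64 (SE 0.38, edgeR adjusted p = 0.302) and the MEF change of Smo was 0.05 (SE 0.24, edgeR adjusted p = 0.919). Over all settings the adjusted p of the difference ran from 0.00999 to 0.302.

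Gli1, at chr10:127329882-127341974 (minus strand), encodes an activator whose transcription is a usual readout of the pathway. Its level was 6.95 and 3.71 CPM in WT mESCs and 4.83, 8.98 and 4.21 CPM in Atxn7l3-/- mESCs. The groups overlapped (log2 fold change 0.21, SE 0.48, edgeR adjusted p = 0.804). In WT MEFs it was at 3.65, 7.88 and 0.927 CPM, and in the labelled libraries at 0.133, 0.179 and 1.14 CPM.

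Labelled replicates 1 and 2 had 5 and 7 counts, while labelled replicate 3 had 38, the same number as WT replicate 3, so the groups overlapped. For Gli1 in MEFs the log2 fold change was -3.09 (SE 1.13, edgeR adjusted p = 0.117), not called. Without labelled replicate 3 it was -4.71 (edgeR adjusted p = 0.0499), in 1 fit of all 11 libraries -3.11 (edgeR adjusted p = 0.0437) and with DESeq2 -3.10 (adjusted p = 0.016). Over all settings the adjusted p ran from 0.016 to 0.287. The difference between cell types was -3.28 (SE 1.36, edgeR adjusted p = 0.131), not called, but it was called by DESeq2 (-3.30, adjusted p = 0.0463) and without labelled replicate 3 (-4.88, edgeR adjusted p = 0.0269), over a range of 0.0269 to 0.346. WT replicate 2, the highest for Gli1, was the lowest for Shh, Dhh and Hhip.

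Gli2, at chr1:118834132-119053619 (minus strand), encodes the main activator that responds first to the signal. Its level was 51.7 and 76.6 CPM in WT mESCs and 41.0, 45.1 and 56.7 CPM in Atxn7l3-/- mESCs, which overlapped (log2 fold change -0.38, SE 0.25, edgeR adjusted p = 0.336). In MEFs it was at 17.0, 30.4 and 24.4 CPM in WT and at 7.17, 9.01 and 15.3 CPM in the labelled libraries. The MEF groups did not overlap, although labelled replicate 3 came near WT replicate 1. Gli2 had a log2 fold change of -1.19 (SE 0.39, 95% interval -2.12 to -0.26, edgeR adjusted p = 0.0947), not called, and -0.48 with the GC correction (SE 0.25, edgeR adjusted p = 0.27). It was called by DESeq2 (-1.19, adjusted p = 0.0267), in 1 fit of all 11 libraries (-1.19, edgeR adjusted p = 0.0316) and without labelled replicate 3 (-1.57, edgeR adjusted p = 0.0487). Over all settings the adjusted p ran from 0.0267 to 0.27.

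Gli3, at chr13:15463235-15730026 (plus strand), encodes the factor that serves mainly as a repressor without signal. Its level was 15.6 and 17.7 CPM in WT mESCs and 6.81, 13.2 and 8.13 CPM in Atxn7l3-/- mESCs. The Atxn7l3-/- libraries were all below WT, by a log2 fold change of -0.79 (SE 0.34, edgeR adjusted p = 0.17). In WT MEFs it was at 134, 88.5 and 117 CPM, and in the labelled libraries at 75.0, 69.1 and 81.7 CPM.

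The MEF groups again did not overlap, with a log2 fold change of -0.60 (SE 0.22, edgeR adjusted p = 0.118). Neither change was called. Over all settings Gli3 ran from -0.73 to -0.3 in MEFs (adjusted p from 0.0661 to 0.383). In mESCs it ran from -1.07 to -0.6 (adjusted p from 0.0597 to 0.491). The difference of the effect between cell types was 0.24 (SE 0.39, 95% interval -0.61 to 1.09, edgeR adjusted p = 0.706).

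Hhip, at chr8:79965851-80058006 (minus strand), encodes a membrane protein that binds and sequesters the ligands and is raised by the pathway. Its level was 2.10 and 1.17 CPM in WT mESCs (110 and 57 counts) and 0.0514, 0.386 and 0.0450 CPM in Atxn7l3-/- mESCs (2, 18 and 2 counts). All Atxn7l3-/- libraries were below WT, and replicate 2 was the highest of them. The log2 fold change was -3.28 (SE 0.87, 95% interval -5.30 to -1.25, edgeR adjusted p = 0.0623), just past the threshold on the uncalled side. Without Atxn7l3-/- replicate 2 it was -4.94 (edgeR adjusted p = 0.0271). With the 2 Atxn7l3-/- libraries low in Ddx3y left out, a choice made after seeing the data that keeps 1 Atxn7l3-/- library, it was -5.03. The Atxn7l3-/- libraries kept in these fits had 2 counts each, under the floor of 3 counts, so neither value is an exact fold. Over all settings the adjusted p ran from 0.00333 to 0.296.

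In WT MEFs Hhip was at 71.9, 9.38 and 19.3 CPM (3526, 300 and 790 counts), and in the labelled libraries at 1.51, 0.0768 and 0.0898 CPM (57, 3 and 3 counts). Every labelled library was below every WT one, although WT replicates differed widely among themselves and labelled replicate 1 stood above the other 2. Its log2 fold change in MEFs was -5.95 (SE 1.43, 95% interval -9.35 to -2.55, edgeR adjusted p = 0.0491), and Hhip was the member called in MEFs. It passed the filter only through the WT libraries, where it was high, and labelled replicates 2 and 3 were at the floor of 3 counts. Without WT replicate 1, 2 or 3 or labelled replicate 2 or 3 the call was lost, with edgeR adjusted p of 0.0917, 0.0619, 0.103, 0.133 and 0.069, while the log2 fold change stayed between -6.35 and -4.69. Without labelled replicate 1 it was -8.60 (edgeR adjusted p = 0.0415), against labelled libraries at the floor only, so this value is not an exact fold. WT replicate 3 was the library with Xist and little Ddx3y. With the replicate block it was -6.49 (SE 0.51, edgeR adjusted p = 0.011), and over all settings the adjusted p ran from 4.42e-06 to 0.133. Its difference between cell types was -2.59 (SE 1.78, edgeR adjusted p = 0.342), so the fall in MEFs was not shown to be larger than the value in mESCs.

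Counted over the members, edgeR called 0 of 8 tested in mESCs (Shh was not tested), where 3.08% of all 17800 genes were called higher and 3.88% lower. At an unadjusted p under 0.05 there were 3 (5309 of all 17800 genes), and DESeq2 called 3 (1739 of all genes higher and 1687 lower). The libraries of the 2 groups did not overlap for 2 members above (Dhh, Smo) and 2 below (Gli3, Hhip), against 23.0% above and 26.7% below over all genes. In MEFs, 1 of 8 tested (12.5%; Ihh was not tested) was called lower and 0 higher, against 4.39% lower and 5.01% higher over 15958 genes. At an unadjusted p under 0.05 there were 6 (5166 of all 15958 genes), and DESeq2 called 4, all lower (2219 of all genes lower and 1724 higher). With the replicate block, edgeR called 2 lower (beside 1355 lower and 877 higher of all 15958 genes). In MEFs 5 of 8 members (Shh, Ptch1, Gli2, Gli3, Hhip) lay below WT without overlap and 0 above, against 19.7% below and 20.1% above over all genes. The median log2 fold change of the tested members was 0.05 in mESCs, beside 0.04 over all genes, and -1.47 in MEFs, beside -0.06. Of the members tested, Shh, Gli1 and Hhip in MEFs and Ihh and Hhip in mESCs passed the filter only through the group where they were higher. Nothing is therefore read from these counts and medians.

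**Figure D3:**
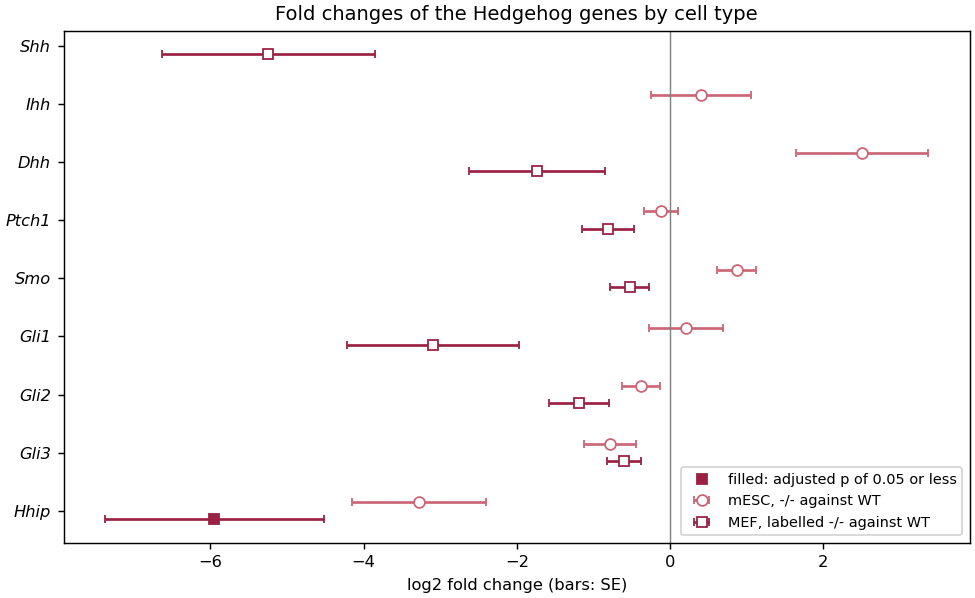
Log2 fold change of each tested member (points) with its SE (bars) in mESCs, Atxn7l3-/- against WT, and in MEFs, labelled Atxn7l3-/- against WT; the filled marker is Hhip in MEFs (-5.95), the member called. Shh, Gli1 and Hhip in MEFs and Ihh and Hhip in mESCs passed the filter only through the group where they were higher. Values run from -5.95 to -0.53 in MEFs (Smo, the highest, is 0.05 with the GC correction) and from -3.28 to 2.51 in mESCs.

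Levels were then set against each other between the WT cell types, per kb of merged exons so that genes of unlike length could be compared. The deposited values per kb divide by a median transcript length that for several members is far below the longest transcript (911 against 6637 bases for Gli2), so exon lengths of GENCODE M21 were used instead. For Dhh the gene starts at 98891152 in GENCODE M21 and at 98893031 in the deposited data. Its level per kb and its shared bases thus rest on a gene model that differs from the deposited one. In WT mESCs the order of mean levels was Gli2 (9.34 CPM per kb), Ptch1 (4.47), Smo (3.47), Gli3 (1.73), Gli1 (1.07), Hhip (0.1803), Ihh (0.0820), Dhh (0.0795) and Shh (0.0209). Ptch1 and Smo overlapped over the libraries, as did Ihh and Dhh, and the other neighbours did not. In Atxn7l3-/- mESCs Gli2 (6.93 CPM per kb) and Smo (6.12) overlapped at the top, followed by Ptch1 (3.99), which overlapped no neighbour. Gli1 (1.20), Gli3 (0.977), Dhh (0.434) and Ihh (0.104) came next, each overlapping the one before it, and then Hhip (0.0177) and Shh (0.00301), which overlapped each other.

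In WT MEFs the order was Smo (24.8 CPM per kb), Gli3 (11.8), Hhip (3.69), Gli2 (3.49), Ptch1 (2.43), Gli1 (0.831), Shh (0.620), Dhh (0.217) and Ihh (0.0793). Smo and Gli3 stood apart from each other and from the rest. Hhip, Gli2 and Ptch1 overlapped their neighbours, as did Gli1, Shh, Dhh and Ihh, while Ptch1 lay above Gli1 in every library. In the labelled MEF libraries Smo (17.3 CPM per kb) and Gli3 (7.85) again led, Gli2 (1.53) and Ptch1 (1.41) overlapped, and Gli1 (0.0967), Dhh (0.0661), Hhip (0.0617), Shh (0.0155) and Ihh (0.00887) were all lower, each overlapping its neighbour. Dividing by the longest transcript instead exchanged Smo with Gli2 in Atxn7l3-/- mESCs and Ptch1 with Gli2 in the labelled MEFs, and no other ranks.

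**Figure D4:**
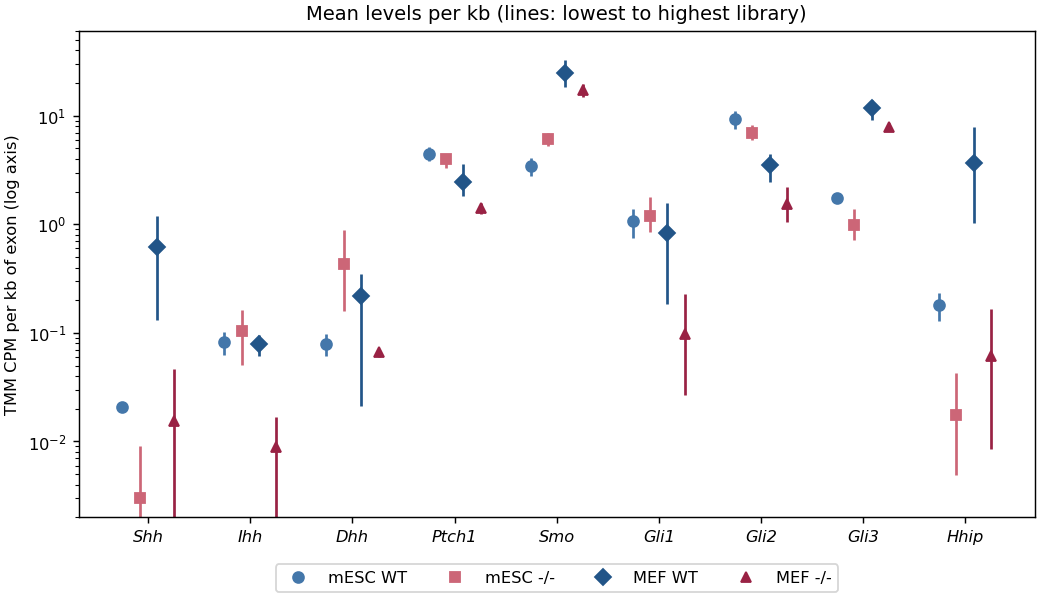
Mean TMM CPM per kb of merged exon (points, log axis) of the 9 genes in the 4 groups, with lines from the lowest to the highest library (cut at the lower axis limit where a library had 0 counts). Smo and Gli3 are the highest genes in both MEF groups, and Gli2 has the highest mean in both mESC groups. In Atxn7l3-/- mESCs Gli2 overlaps Smo, and they exchange ranks when divided by the longest transcript.

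Between WT MEFs and WT mESCs, 4 of 9 members were called higher in MEFs (44.4%, beside 26.8% of 19326 genes) and 2 lower (22.2%, beside 27.1%). The 4 include Shh, which the filter kept only through the MEF libraries, so nothing is read from their share. This comparison shares its WT libraries with those above. Smo was 2.84 higher on the log2 scale (SE 0.31, edgeR adjusted p = 5.65e-05) and Gli3 2.77 higher (SE 0.32, edgeR adjusted p = 8.12e-05), each above in 3 of 3 MEF libraries. Gli2 moved the other way, by -1.42 (SE 0.36, edgeR adjusted p = 0.00691), as did Ptch1, by -0.88 (SE 0.31, edgeR adjusted p = 0.035). Hhip was higher in MEFs (4.35, SE 1.45, edgeR adjusted p = 0.0261). Shh was called higher too (edgeR adjusted p = 0.0123), but it was at the floor in WT mESCs. Its counts pooled to 241 in WT MEFs and 6 in WT mESCs, a ratio of 33.2 (exact 95% counting interval 15.1 to 91.5). Gli1, Dhh and Ihh overlapped and were not called. The count of 6 fell to 3 without WT mESC replicate 1 (Shh, Ptch1 and Hhip lost, edgeR adjusted p of 0.0898, 0.057 and 0.102) and to 2 without WT mESC replicate 2 (Shh, Ptch1, Gli2 and Hhip lost, edgeR adjusted p of 0.0919, 0.233, 0.0811 and 0.154). Without WT MEF replicate 1 Hhip was lost (edgeR adjusted p = 0.0808), and without WT MEF replicate 2 or 3 Ptch1 was lost (edgeR adjusted p of 0.0908 and 0.11). Ptch1 was also lost in a fit of the WT libraries alone (-0.89, edgeR adjusted p = 0.0848), and Shh and Ptch1 did not pass the study's selection by size and level. Over all settings the adjusted p ran from 0.00189 to 0.0919 for Shh, from 0.00285 to 0.233 for Ptch1, from 0.000628 to 0.0811 for Gli2 and from 0.00102 to 0.154 for Hhip.

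The genes most like each member in their log2 CPM over the 11 libraries were found by Pearson's r against 19325 others, over points that share 2 cell types. For Smo they were Col6a2 (0.990), Gm2415 (0.989) and Col1a1 (0.985), and for Gli3 they were Nhs (0.992), Gm9484 (0.991) and Cdh2 (0.990). For Ptch1 they were Atp7b (0.982), Ttn (0.972) and Aox2 (0.971), and for Gli2 they were Crocc (0.985), Sars2 (0.982) and Nsun5 (0.982).

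Hhip was most like Vit (r of 0.965), Mt3 (0.962) and Reln (0.959), Shh was most like Gja5 (0.984), Asic2 (0.983) and Rp1 (0.983), and Gli1 was most like Clstn1 (0.954), Tmem30b (0.952) and Tub (0.943). Dhh was most like Zfyve1 (0.930), Irs2 (0.906) and Gm12522 (0.904), and Ihh was most like D130058E05Rik (0.964), Slc45a1 (0.933) and Mapk1ip1 (0.920). At the few counts of the ligands, such values say little.

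Genes that process and release the ligands were taken as a list of 10. In mESCs 2 were called higher in Atxn7l3-/- (20%, beside 3.08% of all genes) and 0 lower (beside 3.88%), with a median log2 fold change of 0.18. Hhat, the acyltransferase that lipid-modifies the ligands, was at 1.72 and 1.28 CPM in WT and at 5.42, 5.62 and 6.24 CPM in Atxn7l3-/- (log2 fold change 1.99, SE 0.42, edgeR adjusted p = 0.0385), and Scube3, of a family of secreted release factors, was 1.32 higher on the log2 scale (SE 0.24, edgeR adjusted p = 0.0299). In MEFs edgeR called 0 of 10, with 7 at an unadjusted p under 0.05 (5166 of all 15958 genes) and 7 called by DESeq2 (6 lower, beside 2219 lower and 1724 higher of all genes), and the median was -1.51. In each cell type 1 of the 10 passed the filter only through the group where it was higher. The difference of the effect between cell types was called lower for 3 of 10 (30%, beside 5.27% of all genes) and higher for 1 (10%, beside 6.14%). It was lower for Hhat (-2.47, SE 0.55, edgeR adjusted p = 0.0216), Scube3 (-3.51, SE 1.01, edgeR adjusted p = 0.0474) and the glypican Gpc6 (-2.28, SE 0.64, edgeR adjusted p = 0.045), and higher for the sheddase Adam17 (1.18, SE 0.31, edgeR adjusted p = 0.0354). In WT MEFs 8 of the 10 were called higher than in WT mESCs (beside 26.8% of all genes) and 0 lower (beside 27.1%).

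Co-receptors help the ligands bind. Of these, Boc (log2 fold change 5.27, SE 0.48), Cdon (3.73, SE 0.82) and Gas1 (6.70, SE 1.06) were higher in WT MEFs than in WT mESCs (edgeR adjusted p of 1.88e-05, 0.00323 and 0.000492). With Atxn7l3-/- against WT, edgeR called 0 of 4 co-receptors in MEFs (beside 5.01% of all genes higher and 4.39% lower). At an unadjusted p under 0.05 there was 1 (5166 of all 15958 genes), and DESeq2 called 1. Boc, chosen here after its values were seen, at 331, 197 and 142 CPM in WT MEFs and 99.5, 81.4 and 47.2 CPM in the labelled libraries, did not overlap but missed the threshold (-1.59, SE 0.40, edgeR adjusted p = 0.0559).

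Of 27 genes that regulate GLI proteins in the cytoplasm, such as Sufu, Kif7 and Spop, edgeR called 0 with Atxn7l3-/- in mESCs (beside 3.08% of all genes higher and 3.88% lower), with 10 at an unadjusted p under 0.05 (5309 of all 17800 genes) and 7 by DESeq2. In MEFs edgeR called 0 (beside 5.01% and 4.39%), with 4 unadjusted (5166 of all 15958 genes) and 3 by DESeq2. Their medians were -0.19 and -0.04. Between WT cell types, 8 were higher in MEFs (beside 26.8% of all genes), including the ciliary partners Evc (3.96, SE 0.54) and Evc2 (3.02, SE 0.33), and 2 were lower (beside 27.1%), Btrc and Arrb2. For the primary cilium, 46 of 48 listed genes were measured. In mESCs 1 was called higher (2.17%, beside 3.08% of all genes), Wdr35 (0.91, SE 0.18, edgeR adjusted p = 0.0333), and in MEFs 2 (4.35%, beside 5.01%), Bbs5 (1.59, SE 0.29, edgeR adjusted p = 0.0279) and Ttc21b (1.02, SE 0.19, edgeR adjusted p = 0.0268), with 0 lower in either cell type. Both MEF genes were also called for the difference between cell types (1.77, SE 0.45, and 2.15, SE 0.61, edgeR adjusted p of 0.0333 and 0.046). The cilium medians, 0.10 and -0.04, were near those of all genes.

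**Figure D5:**
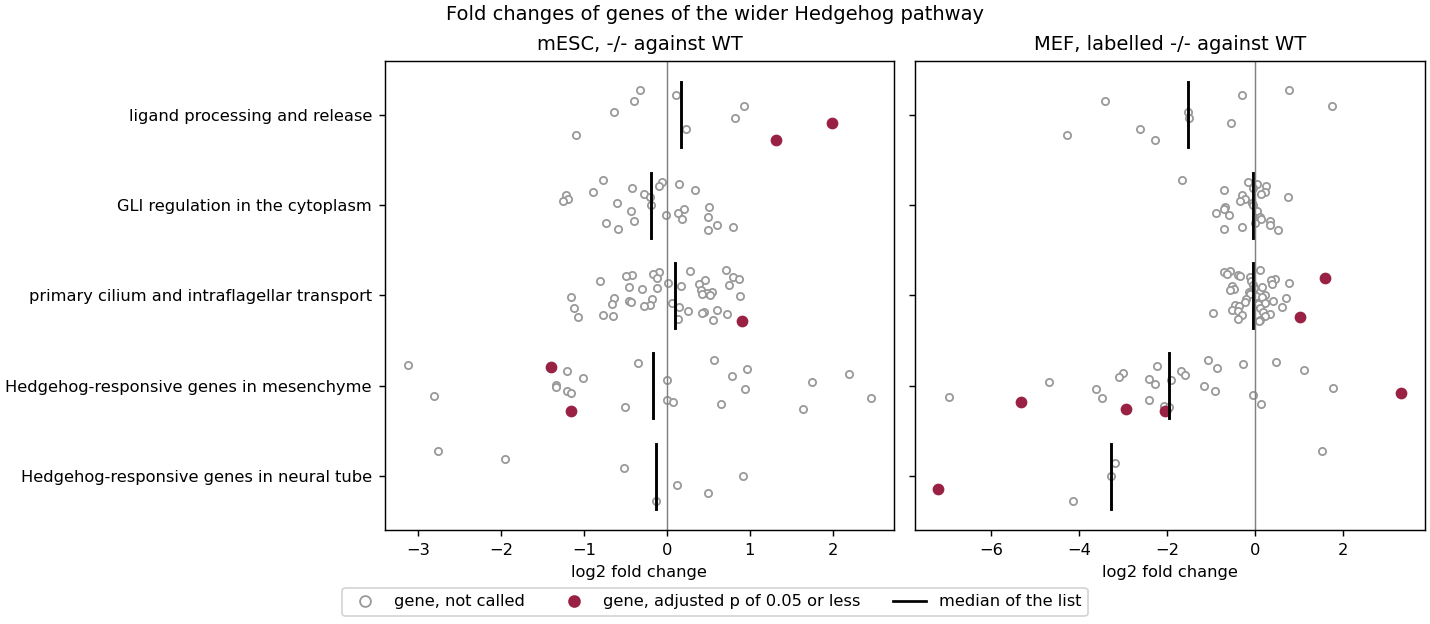
Log2 fold changes of genes of 5 lists of the wider pathway, in mESCs (left, Atxn7l3-/- against WT) and MEFs (right, labelled Atxn7l3-/- against WT); filled points passed an adjusted p of 0.05 and vertical bars are list medians. In MEFs the medians of the mesenchyme and neural tube lists lie at -1.95 and -3.28, over lists with genes that passed the filter only through WT, and those of the cytoplasmic and cilium lists at -0.04.

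Genes known to respond to Hedgehog in mesenchyme were a list of 32. In MEFs 29 were tested, 3 were called lower (10.3%, beside 4.39% of all genes) and 1 higher (3.45%, beside 5.01%), with a median of -1.95. Of the 29, 8 passed the filter only through the group where they were higher, Pthlh among them, so nothing is read from the count and the median. The T-box factor Tbx2 was at 8.04, 9.69 and 13.2 CPM in WT and at 0.982, 1.87 and 1.23 CPM in the labelled libraries (-2.93, SE 0.44, edgeR adjusted p = 0.0175), and Tbx3 was lower too (-2.05, SE 0.47, edgeR adjusted p = 0.0443). Pthlh, which encodes a signal of the growth plate, had 57 counts over WT and 1 over the labelled libraries, a ratio of 51.5 (exact 95% counting interval 8.87 to 2070, edgeR adjusted p = 0.0221). Mycn, a proto-oncogene that drives proliferation, went the other way, at 4.81, 1.19 and 3.34 CPM in WT and at 28.4, 36.2 and 31.2 CPM in the labelled libraries (3.33, SE 0.54, edgeR adjusted p = 0.0209). Foxf1 and Ccnd1 in MEFs were chosen after their values were seen. Of the forkhead gene Foxf1 the values were 5.55, 6.47 and 9.88 CPM in WT and 0.717, 2.56 and 0.838 CPM, without overlap (-2.42, SE 0.62, edgeR adjusted p = 0.0568), just short of a call.

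In mESCs 24 of the 32 were tested and 2 were called lower (8.33%, beside 3.88% of all genes), Ccnd1, which encodes cyclin D1 (-1.39, SE 0.27, edgeR adjusted p = 0.0317), and Tbx3 (-1.15, SE 0.20, edgeR adjusted p = 0.027), with 0 higher and a median of -0.17 (5 of the 24 passed the filter only through the group where they were higher). Ccnd1 in MEFs was at 1167, 467 and 1014 CPM in WT and at 263, 60.5 and 245 CPM in the labelled libraries (-2.24, SE 0.62, edgeR adjusted p = 0.067), not called. The difference between cell types was called for Tbx2 (-4.53, SE 0.86, edgeR adjusted p = 0.013), Mycn (4.58, SE 0.92, edgeR adjusted p = 0.0156) and Cdk6 (2.41, SE 0.56, edgeR adjusted p = 0.0248). These were 2 of 32 higher (6.25%, beside 6.14% of all genes) and 1 lower (3.12%, beside 5.27%). Such shares are not above those of all genes by much, so nothing is read about the list. Between WT cell types, 23 of 32 were higher in MEFs (beside 26.8% of all genes) and 5 lower (beside 27.1%), Tbx3 and Mycn among the latter. Of the 32, 13 passed the filter only through the group where they were higher, so these counts give no support.

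Of 13 genes that respond in the neural tube, 5 were tested in MEFs and 1 was called lower (20%, beside 4.39% of all genes), Olig1, with 202 counts over WT and 1 over the labelled libraries (ratio 182, exact 95% counting interval 32.4 to 7240, edgeR adjusted p = 0.0221). Nkx2-2, Nkx6-2 and Olig2, markers of ventral progenitors, had 0 counts in every labelled MEF library and too few in WT to be tested there. The MEF median was -3.28. Olig1 and Nkx6-1 passed the filter in MEFs only through the WT libraries, where they were higher, so nothing is read from the count and the median. In mESCs 0 of 7 were called (beside 3.08% of all genes higher and 3.88% lower). At an unadjusted p under 0.05 there were 2 (5309 of all 17800 genes), and DESeq2 called 0. For the difference of the effect, 4 of 12 were called lower (33.3%, beside 5.27% of all genes) and 0 higher (beside 6.14%). Nkx2-2 and Nkx6-2, at 0 counts in the labelled libraries, were among the 4, so nothing is read from this count.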

How the data were processed

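RNA-seq of poly(A) RNA (stranded libraries) was analysed in 11 libraries. The authors trimmed reads with cutadapt 1.10, mapped them to mm10 with STAR 2.5.3a, and named HTSeq 0.6.1p1 and DESeq2 1.16.1. The deposited tables hold raw read counts per gene, used for all tests. They also hold a deposited signal per gene, counts divided by DESeq2 size factors and by median transcript length in kb, used for the selection by level and shown for lengths. The 11 deposited normalized columns without division by length, and the authors' fold changes and p-values, were not used.

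Counts were fitted with edgeR 4.0.16 quasi-likelihood (limma 3.58.1, R 4.3.3) after filterByExpr and TMM, with Benjamini-Hochberg adjustment over all genes tested, and genes with an adjusted p of 0.05 or less were called. Each cell type was fitted alone, and 1 fit of 11 libraries gave the comparison of WT cell types and the difference of the effect. Printed CPM use the TMM factors of that joint fit. Replicates were biological and differed by more than counting noise in every group (chi-square per degree of freedom of 84.8 or more). To see whether replicate numbers pair samples, deviations from the group mean were correlated across genes between WT and Atxn7l3-/- libraries of the same number. The r values were 0.473, 0.161 and 0.24 in MEFs, against -0.262 to 0.052 between libraries of different numbers. A replicate block was added in MEFs after these values were seen. The sample titles give a number alone, with no litter or batch, so pairing is not known from them. In mESCs the r values were 0.008 and -0.172. With 2 WT libraries the deviations mirror each other, so these values say little about pairing there. The block was fitted in mESCs too, as a setting within the ranges.

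The members and lists were chosen with earlier results of these data known. Named genes were the members, Atxn7l3, up to 3 called and not overlapping genes a list, comparison and direction, the 3 genes most like each member, and markers given beside a result. Other settings tried were upper-quartile or RLE scaling, no filter, at least 10 counts in every library, DESeq2 1.42.0, the study's selection by size and level, a replicate block (added in MEFs on the correlations above), other sets of libraries in the fit, leaving out each library and, chosen after seeing the data, a GC correction (alone and with the block) and mESCs without the Atxn7l3-/- libraries low in Ddx3y. The floor was 3 counts per library. Results on some genes of the lists are not reported.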

Additional observations from a re-analysis of the deposited data

Results flagged for a closer look

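The effect on Smo passed the test of the difference between the cell types, narrowly. In mESCs Smo had a log2 fold change of 0.87 (SE 0.25) and in MEFs of -0.53 (SE 0.26), neither called by edgeR (DESeq2 called it in mESCs, adjusted p = 0.0206, and the mESC range over all settings was 0.0206 to 0.398), and the difference, MEF minus mESC, was -1.34 (SE 0.38, edgeR adjusted p = 0.0449). It was -0.64 with the GC correction (edgeR adjusted p = 0.302) and, with replicate number as a block, -1.31 (edgeR adjusted p = 0.0501), and the call was lost on leaving out any of 10 of the 11 libraries (edgeR adjusted p 0.0525 to 0.201), all but WT MEF replicate 1. The adjusted p ran from 0.00999 to 0.302 over all settings. The part of GC content and of cell type make-up in this difference was not tested.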

How the results depend on the processing

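In mESCs the count of members called was 0, and became 2 without a filter, 3 with DESeq2, 2 without the Atxn7l3-/- libraries low in Ddx3y, and 0 to 1 on leaving out 1 library. In MEFs the count of 1 became 2 without a filter, 0 with at least 10 counts in every library, 4 with DESeq2, 2 with the replicate block, 5 in 1 fit of 11 libraries (which tested Ihh too and called it), 2 with the GC correction and the block, and 0 to 2 on leaving out 1 library. At least 10 counts in every library leaves Hhip and Shh untested. Between WT cell types the count of 6 was 4 with at least 10 counts in every library, 4 with the study's selection and 5 with the WT libraries alone, and ran from 2 to 6 on leaving out 1 library. For the difference of the effect the count of 1 became 0 without a filter, 3 with DESeq2, 0 with the block, 0 with the GC correction, 0 without the Atxn7l3-/- libraries low in Ddx3y, and 0 to 1 on leaving out 1 library. The counts were the same under RLE and upper-quartile normalization, although the latter moved the median log2 fold change of all genes from -0.06 to -0.17 in MEFs and from -0.01 to -0.12 between WT cell types. The number of all genes called is given for only some of these settings. Nothing about the members is therefore read from how their counts moved.

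Log2 fold changes that were not called changed sign as follows. In mESCs, Ihh was -0.12 with the block and -0.22 with the GC correction and the block, and ran from -0.08 to 0.76 on leaving out 1 library. Ptch1 was 0.08 and Gli1 was -0.26 without the libraries low in Ddx3y, and on leaving out 1 library Ptch1 ran from -0.31 to 0.09 and Gli1 from -0.19 to 0.74. In MEFs, Smo was 0.05 with the GC correction and 0.03 with the GC correction and the block. Between WT cell types, leaving out 1 library gave Gli1 values from -1.21 to 0.16 (0.12 without WT MEF replicate 3) and Ihh values from -0.34 to 0.34 (0.11 without WT MEF replicate 2). For the difference of the effect, Gli2 was 0.14 with the GC correction. The cause was not tested.

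Over all genes DESeq2 called 1739 higher and 1687 lower in mESCs, where edgeR called 548 and 690, and 1724 and 2219 in MEFs, where edgeR called 800 and 701. Without 1 WT mESC library edgeR called 0 genes in mESCs, and the remaining WT library was assumed to vary like the others. The GC corrections and the setting by Ddx3y were chosen after seeing the data, and the replicate block in MEFs was added on correlations in these data. The ligands had few counts, so small differences in them were not detectable at this depth.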
